A study of Mus musculus with 45 samples.

Results

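The 7 genes Ccl3, Ccl4, Ccl5, Ccl1, Ccl22, Xcl1 and Cxcl10 encode inflammatory chemokine ligands that activated T cells can make, and they were taken by name from the 23420 genes of a raw count table. RNA was sequenced from regulatory T cells (Tregs), the Foxp3-expressing CD4+ T cells that restrain immune responses, which were sorted from B16 mouse melanomas or from non-draining lymph nodes (LN). The Treg donors were wild-type mice (WT), mice with Nrp1-deficient Tregs (N), and heterozygous mice. Tregs of the heterozygous mice were deposited as a wild-type fraction (HetWT, labelled Het_WT) and an Nrp1-deficient fraction (HetNrp1def, labelled Het_Nrp1-). Nrp1 encodes neuropilin-1, a Treg surface receptor. The N samples carry the genotype label Het_Nrp1- as well, so their group was read from their titles. Tumour effector T cells (Teff) of WT mice formed the 9th group. Each group was labelled as 3 single-sorted and 2 double-sorted samples. No label names the driver of the Nrp1 deletion, the age of the mice or the mouse behind each sample, so a p-value here measures the spread between the samples of a group, which may be technical.

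Chemokines are small secreted proteins that bind G protein-coupled receptors on leukocytes and direct their migration along a gradient. Ccl3 and Ccl5 bind Ccr1, Ccl5 also binds Ccr3, and Ccl4 attracts monocytes and T cells; Ccl1 binds Ccr8, Ccl22 binds Ccr4, Xcl1 binds Xcr1 on cross-presenting dendritic cells, and Cxcl10 binds Cxcr3. In tumours, Ccl3, Ccl4, Ccl5 and the Cxcr3 ligands recruit effector T cells and myeloid cells, while the Ccl22 to Ccr4 and Ccl1 to Ccr8 axes are known for attracting Tregs.

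The 45 libraries held between 2945638 and 35787148 counts (median 10248080). Within 4 pairs of libraries the counts differed by little more than sampling noise (chi-square per degree of freedom of 2.42 to 2.75, against at least 68.4 in the 86 other pairs of the same groups), so the counts of each pair were added up to 1 sample. This gave 41 samples, 5 per group in WT, N and Teff, and 4 in each HetWT and HetNrp1def group. In 2 of these pairs, both in tumours, a library labelled single-sorted matched one labelled double-sorted, and the sum was treated as single-sorted. Outside those sums, the first double-sorted samples (ds1) had TMM scaling factors of 0.552 to 0.820, against 1.14 to 1.22 in the second (ds2). In WT tumours the first had a Pearson r on log2(count + 1) of 0.777 to 0.799 with the others, which had 0.891 to 0.932 among themselves. The highest Ccl1, Ccl22, Xcl1 and Cxcl10 values were in first double-sorted samples, those of Ccl3, Ccl4 and Ccl5 in single-sorted ones. The reason was not tested. The targeted gene, Nrp1, was counted at 95.1 to 290.3 CPM (counts normalised to the TMM-scaled library size) in tumour Tregs of all genotypes and at 2.70 to 19.2 CPM in Teff, and a count taken across all exons does not test the deletion. Foxp3 ranged from 5.99 to 60.0 CPM in tumour Tregs, from 0 to 68.8 CPM in LN Tregs and from 0 to 1.62 CPM in Teff. The summed level of 6 Treg markers was 3633 to 9496 CPM in tumour Tregs, 1893 to 5337 CPM in LN Tregs and 109 to 280 CPM in Teff. Some libraries also held transcripts of other cells: 7 melanoma genes summed to 3.97 to 3702 CPM in tumour Tregs and 0.951 to 72.3 CPM in LN Tregs, and 14 macrophage genes to 4.46 to 479 CPM and 4.94 to 258 CPM.

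The genes lie on 4 chromosomes of mm10, with 3 exons each in the GENCODE vM21 models. Ccl3 (chr11:83647844-83649355, minus strand) and Ccl4 (chr11:83662584-83664683, plus strand) are 13.2 kb apart, Ccl5 (chr11:83525778-83530518, minus) lies 117 kb from Ccl3, and Ccl1 (chr11:82176659-82179812, minus) lies 1346 kb from Ccl5. Ccl22 is at chr8:94745590-94751699 (plus), Xcl1 at chr1:164931644-164935527 (minus) and Cxcl10 at chr5:92346805-92348889 (minus). The transcripts of Ccl3 and Ccl4 have no 25-base word in common and no identical run longer than 9 bases. Exons of Xcl1 overlap those of Gm20743, whose transcripts hold 15.2% of the 25-base words of Xcl1, and no strand setting is stated for the counting, so reads of that stretch cannot be assigned to either gene.

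RefSeq promoter windows (GRCm38.p6, 250 bases before the start site) were found for 5 of the 7 genes. The stretches below are shown because the genes they belong to had different patterns across the samples: Cxcl10 is a textbook interferon target, Ccl1 and Ccl22 went in opposite directions between tissues, and Ccl3 had the largest tissue difference. Capitals mark matches on either strand to an NF-kB-type motif (GGGA and CC with any 4 bases between them, in 17.6% of 32851 promoter windows) or an interferon-stimulated response element (ISRE, a repeat of GAAA with any 2 bases between, in 2.98%). Cxcl10 is shown for chr5:92348890-92349109 (minus strand), Ccl1 for chr11:82179813-82180032 (minus), Ccl22 for chr8:94745434-94745589 (plus) and Ccl3 for chr11:83649379-83649598 (minus).
Cxcl10: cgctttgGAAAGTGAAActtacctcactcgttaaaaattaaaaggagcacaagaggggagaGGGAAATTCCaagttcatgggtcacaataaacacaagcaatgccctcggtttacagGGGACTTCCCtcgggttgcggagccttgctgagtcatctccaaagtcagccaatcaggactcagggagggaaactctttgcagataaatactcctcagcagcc
Ccl1: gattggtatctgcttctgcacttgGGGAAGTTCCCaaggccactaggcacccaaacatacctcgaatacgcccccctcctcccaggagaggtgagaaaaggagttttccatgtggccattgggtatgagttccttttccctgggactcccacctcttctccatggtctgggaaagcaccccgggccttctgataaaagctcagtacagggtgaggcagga
Ccl22: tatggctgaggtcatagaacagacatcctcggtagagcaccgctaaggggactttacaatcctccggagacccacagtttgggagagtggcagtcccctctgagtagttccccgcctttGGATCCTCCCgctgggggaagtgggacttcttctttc
Ccl3: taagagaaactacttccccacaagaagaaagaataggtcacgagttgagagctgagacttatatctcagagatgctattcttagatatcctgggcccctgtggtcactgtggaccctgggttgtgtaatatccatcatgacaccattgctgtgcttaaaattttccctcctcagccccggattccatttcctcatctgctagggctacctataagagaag
The Cxcl10 window held an ISRE match, GAAAGTGAAA, at -213 to -204 and NF-kB matches at -159 to -150 and -103 to -94, besides an AP-1 match (TGANTCA, in 6.75% of windows) at -74 to -68. The Ccl1 window held a pair of overlapping NF-kB matches, one on each strand, within GGGAAGTTCCC, and Ccl22 held 1 on the other strand, GGATCCTCCC. No NF-kB or ISRE match was in the Ccl3 window, which held an NFAT match (GGAAAA, in 20.4%) and a RUNX match (TGTGGT, in 14%). NFAT matches were also in the Ccl1 window, at -117 to -112 and -87 to -82. These are matches of letters in a window and say nothing about binding.

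Ccl5 was the most abundant of the 7 transcripts per length in tumour Tregs, with a median of 1970.1 CPM per kb of exon over the 18 samples. It was followed by Ccl4 (843 CPM per kb), Ccl3 (265), Cxcl10 (39.5), Ccl1 (18.1), Xcl1 (14.8) and Ccl22 (0.0361). In LN Tregs the order changed: Ccl5 was again first, at 197 CPM per kb, then came Cxcl10 (6.89), Ccl4 (5.80), Xcl1 (2.70), Ccl22 (1.18) and Ccl1 (0.284), with Ccl3 at a median of 0. In Teff the medians of Ccl3, Ccl4, Ccl1, Ccl22 and Xcl1 were 0, and those of Ccl5 and Cxcl10 were 25.3 and 0.202 CPM per kb.

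**Figure D1:**
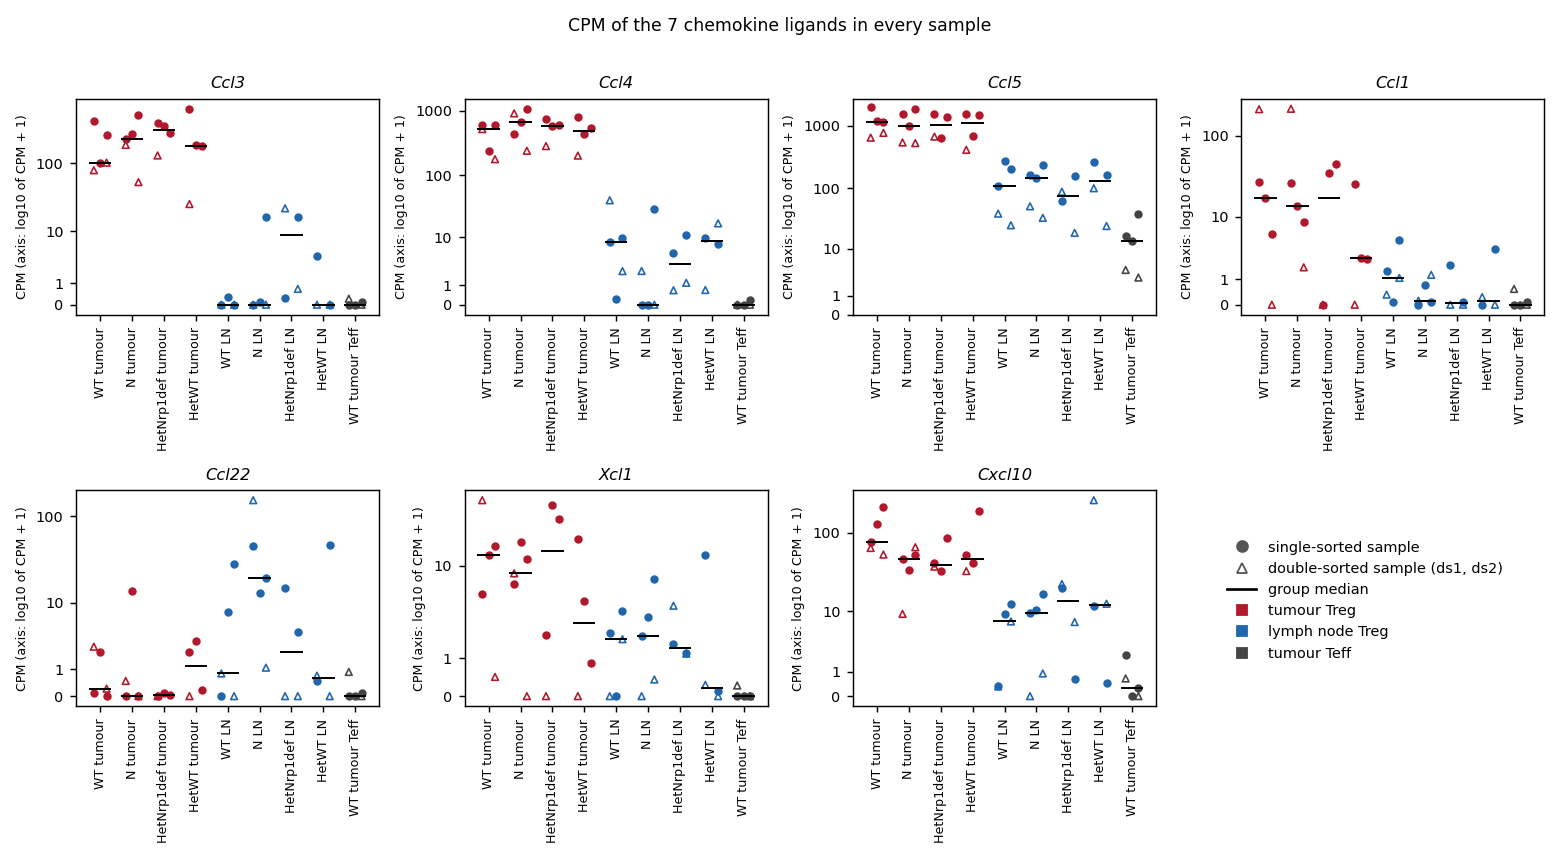
CPM of each of the 7 chemokine genes in every sample, on a log10(CPM + 1) axis, by group; filled circles are single-sorted samples, open triangles double-sorted samples, and lines group medians (red, tumour Tregs; blue, LN Tregs; grey, Teff). Ccl3, Ccl4 and Ccl5 are higher in all 18 tumour Treg samples than in all 18 LN Treg samples, while Ccl22 spreads to its highest values in LN Tregs.

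Between tissues, with the 4 Treg genotypes weighted equally, 5 of the 7 genes were called higher in tumour Tregs (Ccl3, Ccl4, Ccl5, Ccl1 and Cxcl10) and Ccl22 was called lower, at an adjusted p below 0.05 by edgeR's quasi-likelihood test with Benjamini-Hochberg adjustment over the 14668 genes tested. In the same comparison 11.2% of all genes were called, 5.84% higher and 5.37% lower. The median log2 fold change of the 7 genes was 3.20, against -0.08 over all genes tested. Ccl3, Ccl4 and Ccl5 were the 3 genes of the 7 whose tumour and LN samples did not overlap in CPM, as was the case for 0.368% of all genes. In bulk samples a larger share of cells expressing a gene and more RNA per cell cannot be told apart.

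**Figure D2:**
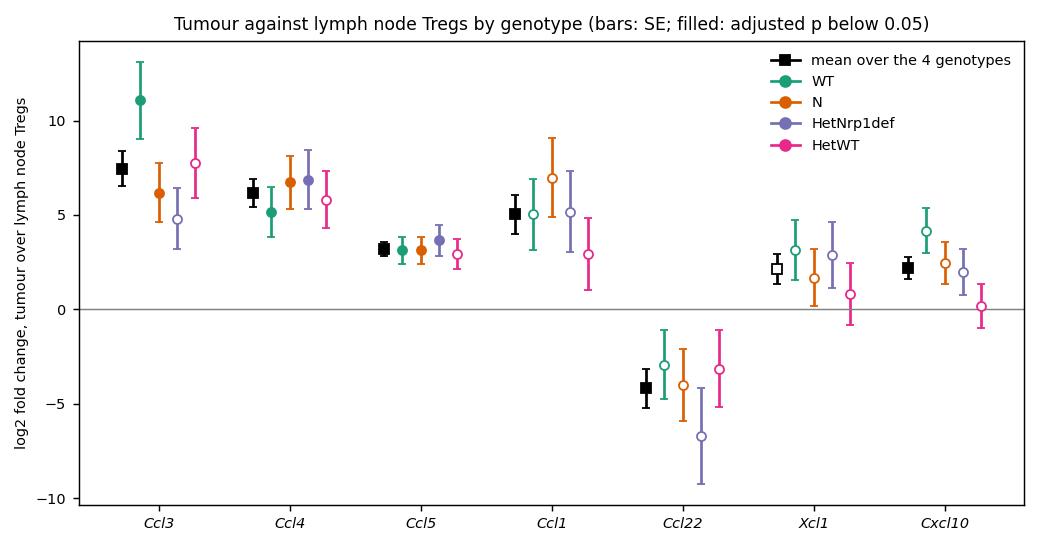
Log2 fold change, tumour over LN Tregs, of the 7 chemokine genes over the 4 genotypes together and within each; bars are standard errors, and filled points have an adjusted p below 0.05. Over all genotypes Ccl3 (7.45), Ccl4 (6.14), Ccl1 (5.02), Ccl5 (3.20) and Cxcl10 (2.20) lie above 0 and Ccl22 (-4.19) below it.

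Ccl3, also called macrophage inflammatory protein 1 alpha, recruits monocytes and T cells. In tumours of WT mice it was counted at 405, 102 and 257 CPM in the single-sorted and 79.8 and 102 CPM in the double-sorted samples, and in WT lymph nodes at 0, 0.287 and 0 CPM in the single-sorted and 0 and 0 CPM in the double-sorted samples. Every WT tumour sample was therefore above every LN sample, and 4 of the 5 LN samples had no Ccl3 count. In N mice the tumour Tregs had 221, 263 and 484 CPM in the single-sorted and 184 and 53.8 CPM in the double-sorted samples, and the LN Tregs 0, 0.0865 and 16.5 CPM in the single-sorted and 0 and 0 CPM in the double-sorted samples. The highest N lymph node sample stayed below the lowest N tumour sample. In HetNrp1def Tregs the tumour values were 374, 340.0 and 269 CPM in the single-sorted and 129.9 CPM in the double-sorted sample, and the LN values 0.231 and 16.6 CPM in the single-sorted and 22.3 and 0.677 CPM in the double-sorted samples. In HetWT Tregs the tumour values were 601, 185 and 175 CPM in the single-sorted and 25.8 CPM in the double-sorted sample, and the LN values 3.88 and 0 CPM in the single-sorted and 0 and 0 CPM in the double-sorted samples. No tumour sample of any genotype overlapped an LN sample, and 10 of the 18 LN samples were at 0. The log2 fold change over the genotypes was 7.45 ± 0.92 (SE), adjusted p = 4.15e-07 by edgeR. Within genotypes it passed the test in WT (11.08 ± 2.04 (SE), adjusted p = 0.00198) and N (6.18 ± 1.56 (SE), adjusted p = 0.0487), and had values of 4.81 ± 1.63 (adjusted p = 0.206) in HetNrp1def and 7.75 ± 1.87 (adjusted p = 0.0723) in HetWT by the same edgeR test. The WT call was lost on the authors' log2 values with limma (4.29, adjusted p = 0.443) and among double-sorted samples alone (adjusted p = 0.652 by edgeR). The log2 values and the counts disagree on the WT samples, whose Ccl3 counts did not overlap between tissues. The reason was not tested. The N call was lost under 6 of 11 alternative settings and in 9 of the 10 fits that left out 1 N sample. Limma on the log2 values kept the N call (7.66, adjusted p = 0.00387). HetWT passed (14.74, adjusted p = 0.0278 by edgeR) without LN replicate 2, the sample with 3.88 CPM. The other HetWT LN samples held 0 Ccl3 counts, so the size of this value is not a measured ratio. The WT value of 11.08 rests on 4 counts over the 5 LN samples.

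Ccl4, or macrophage inflammatory protein 1 beta, is encoded next to Ccl3. Its WT tumour samples had 616, 241 and 613 CPM in the single-sorted and 523 and 178 CPM in the double-sorted samples, and its WT LN samples 8.38, 0.215 and 9.80 CPM in the single-sorted and 40.4 and 2.32 CPM in the double-sorted samples. The N tumour samples had 439, 667 and 1082 CPM in the single-sorted and 919.6 and 241 CPM in the double-sorted samples, against 0, 0 and 29.2 CPM in the single-sorted and 2.33 and 0 CPM in the double-sorted samples in N lymph nodes. Tumour and LN values were separate in both genotypes, and the highest LN value of all, 40.4 CPM, belonged to a double-sorted WT sample. In HetNrp1def Tregs there were 749, 575 and 608 CPM in the single-sorted and 285 CPM in the double-sorted sample from tumours and 5.32 and 10.9 CPM in the single-sorted and 0.676 and 1.19 CPM in the double-sorted samples from LN. In HetWT Tregs there were 793, 444 and 538 CPM in the single-sorted and 203 CPM in the double-sorted sample from tumours and 9.67 and 7.86 CPM in the single-sorted and 0.691 and 17.2 CPM in the double-sorted samples from LN. The order was again tumour above LN in every sample. Over the genotypes the log2 fold change was 6.14 ± 0.74 (SE), adjusted p = 2.89e-07 by edgeR. It passed within WT (5.16 ± 1.31 (SE), adjusted p = 0.0472), N (6.73 ± 1.40 (SE), adjusted p = 0.0102) and HetNrp1def (6.88 ± 1.58 (SE), adjusted p = 0.0289), and was 5.80 ± 1.5 (adjusted p = 0.118) in HetWT by edgeR. Leaving out 1 sample ended the call in 8 of 10 fits in WT and 7 of 8 in HetNrp1def, and in none of 10 in N. Of 11 alternative settings, 5 ended it in WT, 2 in N and 5 in HetNrp1def. Limma on the authors' log2 values gave 1.53 in WT (adjusted p = 0.866), which disagrees with the separate counts. In N, limma kept the call (8.10, adjusted p = 0.00455), and in HetNrp1def it called 0 of the 7 genes and only 6 of all genes.

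Ccl5, or RANTES, binds Ccr1 and Ccr3 and is a classical product of memory and cytotoxic T cells. In WT mice the tumour Tregs had 1939.5, 1179.9 and 1119 CPM in the single-sorted and 642 and 766 CPM in the double-sorted samples, and the LN Tregs 109.9, 269 and 207 CPM in the single-sorted and 39.0 and 25.2 CPM in the double-sorted samples. In N mice the tumour Tregs had 1554, 977 and 1862 CPM in the single-sorted and 539 and 526 CPM in the double-sorted samples, and the LN Tregs 162, 148 and 232 CPM in the single-sorted and 51.4 and 33.2 CPM in the double-sorted samples. The ranges did not meet in either genotype, although Ccl5 was present in every LN sample. HetNrp1def tumour Tregs had 1512, 629.8 and 1365 CPM in the single-sorted and 668 CPM in the double-sorted sample, and their LN counterparts 62.5 and 160.2 CPM in the single-sorted and 88.1 and 18.8 CPM in the double-sorted samples. HetWT tumour Tregs had 1515, 689 and 1492 CPM in the single-sorted and 411 CPM in the double-sorted sample, and their LN counterparts 260.0 and 161 CPM in the single-sorted and 100.2 and 24.4 CPM in the double-sorted samples. Ranked by median, the 4 tumour groups came first (977 to 1119 CPM) with ranges that overlapped one another, then after a gap the 4 LN groups (75.3 to 148 CPM), and last Teff (13.5 CPM). The log2 fold change over the genotypes was 3.20 ± 0.38 (SE), adjusted p = 1.65e-07 by edgeR, and it was 3.12 in WT (adjusted p = 0.0213), 3.12 in N (0.0208), 3.66 in HetNrp1def (0.0232) and 2.91 in HetWT (0.150). Leaving out 1 sample ended the Ccl5 call in 4 of 10 fits in WT, 7 of 10 in N and 7 of 8 in HetNrp1def. Of 11 alternative settings, 3 ended it in WT, 3 in N and 4 in HetNrp1def. Limma on the authors' log2 values gave 0.60 in WT (adjusted p = 0.879), which disagrees with the separate counts. In N, limma kept the call (2.47, adjusted p = 0.0433), and in HetNrp1def it called 0 of the 7 genes and only 6 of all genes.

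Within the groups, Ccl5 also differed by sorting. The median of the double-sorted samples was below that of the single-sorted samples in 9 of 9 groups, and in 7 of 9 every double-sorted sample was below every single-sorted sample, which 0.804% of the 14668 genes tested showed in as many groups. In WT tumours, for example, the double-sorted samples had 642 and 766 CPM and the single-sorted samples 1119 to 1939.5 CPM. The HetWT tumour group is among the 7 only with a sum that holds a library labelled double-sorted (1492 CPM) treated as single-sorted. Another single-sorted sample of that group had 689 CPM. The tissue difference passed the test under either sorting, with a log2 fold change of 3.64 among double-sorted samples alone (adjusted p = 2.04e-06 by edgeR) and 2.96 among single-sorted samples alone.

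**Figure D3:**
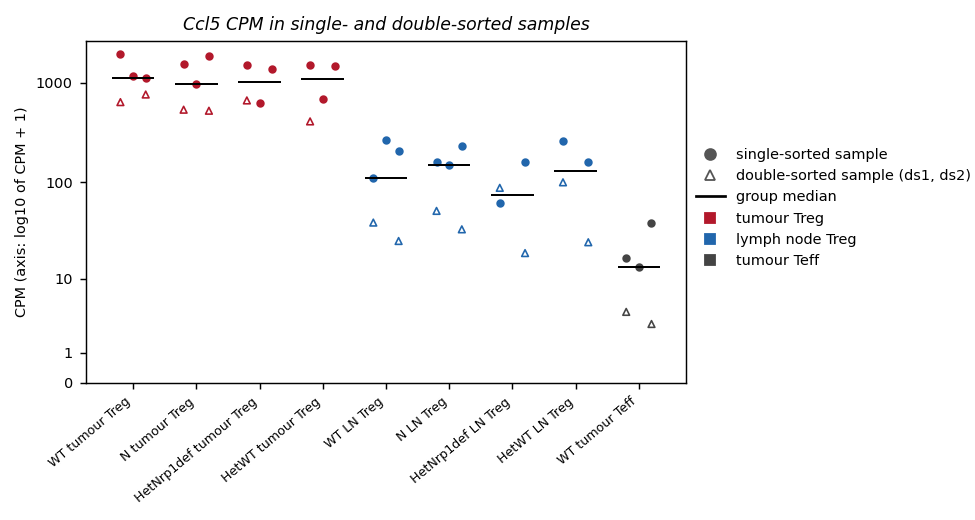
Ccl5 in single-sorted (filled circles) and double-sorted (open triangles) samples of each of the 9 groups, on a log10(CPM + 1) axis. The double-sorted samples lie lower in the median in all 9 groups, and the tumour Treg samples lie above the LN samples under either sorting.

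Ccl1 is the ligand of Ccr8. WT tumour Tregs had 27.3, 17.3 and 5.91 CPM in the single-sorted and 207 and 0 CPM in the double-sorted samples, and WT LN Tregs 1.52, 0.0717 and 4.80 CPM in the single-sorted and 0.317 and 1.08 CPM in the double-sorted samples. N tumour Tregs had 27.0, 13.7 and 8.49 CPM in the single-sorted and 209 and 1.77 CPM in the double-sorted samples, and N LN Tregs 0, 0.692 and 0.0907 CPM in the single-sorted and 0.116 and 1.26 CPM in the double-sorted samples. In both genotypes the first double-sorted tumour sample was the highest and the second the lowest of the tumour samples, and the values overlapped between tissues in WT but not in N. HetNrp1def tumour Tregs had 0, 35.2 and 45.9 CPM in the single-sorted and 0 CPM in the double-sorted sample, and HetWT tumour Tregs 26.1, 2.56 and 2.51 CPM in the single-sorted and 0 CPM in the double-sorted sample. The 8 LN samples of the heterozygous mice were at or below 3.61 CPM. Over the genotypes the difference was 5.02 ± 1.02 (SE), adjusted p = 0.000576 on the log2 scale by edgeR. By edgeR no single genotype passed the test (WT 5.03, N 6.96, HetNrp1def 5.17 and HetWT 2.93), while DESeq2 called Ccl1 in N (7.14, adjusted p = 0.00731). The call over the genotypes was lost among double-sorted samples alone (2.86) and on the authors' log2 values with limma (adjusted p = 0.105).

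Xcl1, or lymphotactin, is made by activated CD8+ T cells and NK cells and attracts Xcr1+ dendritic cells. WT tumour Tregs had 5.58, 12.5 and 14.7 CPM in the single-sorted and 35.8 and 0.424 CPM in the double-sorted samples, and WT LN Tregs 2.18, 0 and 3.78 CPM in the single-sorted and 0 and 1.85 CPM in the double-sorted samples. N tumour Tregs had 6.89, 16.1 and 11.5 CPM in the single-sorted and 8.58 and 0 CPM in the double-sorted samples, and N LN Tregs 2.04, 3.29 and 7.71 CPM in the single-sorted and 0 and 0.359 CPM in the double-sorted samples. The single-sorted WT tumour samples were above all WT LN samples, but a double-sorted tumour sample with 0.424 CPM overlapped them, and the N groups overlapped through a tumour sample at 0 and an LN sample at 7.71 CPM. HetNrp1def tumour Tregs had 2.10, 32.4 and 25 CPM in the single-sorted and 0 CPM in the double-sorted sample, against 1.19 to 4.28 CPM in LN. HetWT tumour Tregs had 17.1, 4.78 and 0.836 CPM in the single-sorted and 0 CPM in the double-sorted sample, and HetWT LN Tregs 12.3 and 0.101 CPM in the single-sorted and 0.230 and 0 CPM in the double-sorted samples. Its log2 fold change over the genotypes was 2.12 ± 0.81 (SE) and did not pass the test (adjusted p = 0.0810 by edgeR). It passed (3.34, adjusted p = 0.00699 by edgeR) without HetWT LN replicate 2, which had 12.3 CPM, and was -0.27 among double-sorted samples alone. Of 11 alternative settings, 2 called it: DESeq2 (2.10, adjusted p = 0.0342) and edgeR on the 45 libraries as deposited (2.22, adjusted p = 0.0332).

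Cxcl10 is an interferon-induced ligand of Cxcr3. WT tumour Tregs had 76.8, 130.2 and 210.0 CPM in the single-sorted and 64.9 and 53.7 CPM in the double-sorted samples, and WT LN Tregs 0.326, 9.17 and 12.6 CPM in the single-sorted and 0.317 and 7.26 CPM in the double-sorted samples. Every WT tumour sample was above every WT LN sample. N tumour Tregs had 47.6, 34.2 and 53.4 CPM in the single-sorted and 9.22 and 66.2 CPM in the double-sorted samples, and N LN Tregs 9.46, 10.5 and 17.0 CPM in the single-sorted and 0 and 0.898 CPM in the double-sorted samples. The first double-sorted N tumour sample, at 9.22 CPM, lay among the N lymph node samples. HetNrp1def tumour Tregs had 41.9, 33.4 and 85.5 CPM in the single-sorted and 37.9 CPM in the double-sorted sample, and HetNrp1def LN Tregs 20.5 and 0.619 CPM in the single-sorted and 22.8 and 7.11 CPM in the double-sorted samples. HetWT tumour Tregs had 53.4, 42.2 and 184 CPM in the single-sorted and 33.3 CPM in the double-sorted sample, and HetWT LN Tregs 11.6 and 0.439 CPM in the single-sorted and 253 and 12.6 CPM in the double-sorted samples. A single double-sorted HetWT LN sample, at 253 CPM, exceeded every tumour sample. That sample also had 221.7 CPM of Ifng, which encodes interferon gamma, and 1438.9 CPM of Nrp1. Its summed CD8 T cell, NK cell and macrophage markers were at 2.53, 5.07 and 18 CPM. Dendritic cell markers summed to 345 to 2305 CPM over the HetWT LN samples. The part of other cells in the Cxcl10 of that sample was not tested. The log2 fold change over the genotypes was 2.20 ± 0.59 (SE), adjusted p = 0.00905 by edgeR, and 2.97 (adjusted p = 0.000219) without that sample. Within genotypes it was 4.17 in WT (adjusted p = 0.0887 by edgeR), 2.47 in N, 1.97 in HetNrp1def and 0.18 in HetWT (-0.31 with RLE scaling), none of which passed by edgeR with all samples. In WT it was called by DESeq2 (4.24, adjusted p = 0.00369) and by edgeR without the first double-sorted samples (4.0, adjusted p = 0.0446). The call over the genotypes was lost on the authors' log2 values with limma (adjusted p = 0.183) and among double-sorted samples alone (2.49).

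Ccl22, a Ccr4 ligand best known as a product of dendritic cells and macrophages, was the gene of the 7 that was lower in tumour Tregs. WT LN Tregs had 0, 7.60 and 29.0 CPM in the single-sorted and 0.793 and 0 CPM in the double-sorted samples, and WT tumour Tregs 0.0845, 2.07 and 0 CPM in the single-sorted and 2.56 and 0.212 CPM in the double-sorted samples. N LN Tregs had 46.5, 13.2 and 19.8 CPM in the single-sorted and 152 and 1.08 CPM in the double-sorted samples, and N tumour Tregs 0, 13.9 and 0 CPM in the single-sorted and 0.477 and 0 CPM in the double-sorted samples. The samples overlapped in both genotypes, since a tumour sample of N mice reached 13.9 CPM and 2 WT LN samples were at 0. HetWT LN Tregs had 0.482 and 47.4 CPM in the single-sorted and 0.691 and 0 CPM in the double-sorted samples, and HetWT tumour Tregs 2.12, 3.13 and 0.167 CPM in the single-sorted and 0 CPM in the double-sorted sample. In HetNrp1def Tregs the 4 LN samples held 372 Ccl22 counts and the 4 tumour samples 3, a ratio of CPM of 153.0 (95% interval from counting error alone, 52.0 to 745.4). All LN counts came from the single-sorted samples, at 14.9 and 4.15 CPM, while the double-sorted LN samples were at 0. The tumour samples had at most 0.0754 CPM, so the groups overlapped, and the interval leaves out this spread between samples. The log2 fold change over the genotypes was -4.19 ± 1.05 (SE), adjusted p = 0.00529 by edgeR, and no genotype alone passed that test (WT -2.93, N -3.99, HetNrp1def -6.70 and HetWT -3.14). On the authors' log2 values limma called Ccl22 in N (-5.80, adjusted p = 0.0176). The call over the genotypes was lost among double-sorted samples alone (-2.71). Summed dendritic cell markers (11 genes) were 202 to 2825 CPM in LN Tregs, with a median of 1327 CPM, and 98.6 to 1689 CPM in tumour Tregs, with a median of 577 CPM. In the LN sample with the highest Ccl22, 152.3 CPM, that sum was 661 CPM. The part of other cells in the Ccl22 difference was not tested.

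Counted within genotypes, the tissue comparison called 3 of the 7 genes in WT (Ccl3, Ccl4 and Ccl5), where 0.873% of all genes were called, and the same 3 in N (0.791% of all genes). It called Ccl4 and Ccl5 in HetNrp1def (0.654% of all genes) and 0 in HetWT by edgeR (0.239% of all genes). In HetWT 3 genes of the 7 had an unadjusted p below 0.05 by edgeR (1191 of all genes), and DESeq2 called 3 (262 of all genes). The groups of samples did not overlap for 4 of the 7 genes in WT (3.13% of all genes), 4 in N (3.94%), 4 in HetNrp1def (6.98%) and 3 in HetWT (4.66%). Blocking on the replicate number in HetWT called 2 genes of the 7, Ccl3 (adjusted p = 0.0176) and Ccl5 (adjusted p = 0.000149), by edgeR, and 93 of all genes.

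Tumour Tregs of WT mice were also compared with tumour Teff of the same genotype, and 6 of the 7 genes, all but Ccl22, were called higher in Tregs (5.71% of all genes were called, 4.10% higher). Ccl3 was counted 16547 times over the 5 Treg samples and 3 times over the 5 Teff samples, a ratio of CPM of 5163 (95% interval from counting error alone, 1766 to 25037, adjusted p = 0.000301 by edgeR). For Ccl4 the counts were 32358 and 2, a ratio of 15144 (4192 to 125053, adjusted p = 1.98e-05 by edgeR), and for Xcl1 they were 833 and 2, a ratio of 389.9 (107.6 to 3224, adjusted p = 0.00797). Ccl5 was present in every Teff sample, at 16.9, 13.5 and 39.0 CPM in the single-sorted and 4.10 and 2.86 CPM in the double-sorted samples, all below the 642 CPM of the lowest WT tumour Treg sample, and its log2 fold change was 6.20 ± 0.83 (SE), adjusted p = 1.88e-06 by edgeR. Ccl1, at 0 in 3 Teff samples and at most 0.540 CPM, had 8.63 ± 2.28 (SE), adjusted p = 0.0143, and Cxcl10, at most 2.17 CPM in Teff, had 7.26 ± 1.40 (SE), adjusted p = 0.000349. Ccl22 was low in both cell types (2.31, adjusted p = 0.612 by edgeR). On the authors' log2 values limma called none of the 7 genes, with log2 fold changes of 0.96 for Ccl3 (adjusted p = 0.957), 2.82 for Ccl4 (0.763), 1.97 for Ccl5 (0.371), 1.85 for Ccl1 (0.872), 3.07 for Xcl1 (0.603) and 2.03 for Cxcl10 (0.813). Over all genes limma called 58 in that comparison. In the counts, every WT tumour Treg sample was above every Teff sample for Ccl3, Ccl4 and Ccl5. The deposited counts and log2 values thus disagree on these samples, and the reason was not tested. Among double-sorted samples alone the calls of Ccl3, Ccl1, Xcl1 and Cxcl10 were lost. The groups did not overlap for 5 of the 7 genes, Ccl3, Ccl4, Ccl5, Xcl1 and Cxcl10, as for 7.51% of all genes. With tumour Tregs of all 4 genotypes against the same Teff samples, the same 6 genes were called (11.2% of all genes, 5.43% higher), and 4 did not overlap (3.42%). Over the Teff samples the 14 macrophage markers summed to 10.9 to 42.4 CPM, below the median of 183 CPM in tumour Tregs, and dendritic cell markers to 9.44 to 288 CPM. The 7 melanoma markers summed to 3.47 to 78.7 CPM in Teff and to 6.58 to 3702 CPM in WT tumour Tregs. Between these groups 4 of 7 melanoma, 1 of 11 dendritic cell and 0 of 14 macrophage markers were called higher in Tregs. The part of other cells in the 6 ligand calls was not tested.

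In the 4 second double-sorted tumour Treg samples the 14 macrophage markers summed to 4.46 to 92.8 CPM, against 79.9 to 479 CPM in the single-sorted tumour samples. Of these markers C1qa, C1qb, Cd14, Ms4a7 and Mrc1 were at 0 in all 4, and Csf1r was at 0 in 3 with 0.246 CPM in the other. Others were present: Cd68 was at 1.27 to 8.59 CPM in all 4 (LN median 0.677 CPM), and Apoe reached 83.8 CPM, Lyz2 2.37 CPM and C1qc 1.77 CPM. The 11 dendritic cell markers summed to 316 to 532 CPM, with Clec9a and Itgax at 0, Zbtb46 at 0.366 to 19.9 CPM and Cd74 at 251 to 465 CPM. The 6 NK cell markers summed to at most 0.246 CPM. In those samples Ccl3 was at 25.8 to 130 CPM, Ccl4 at 178 to 285 CPM, Ccl5 at 411 to 766 CPM and Cxcl10 at 33.3 to 66.2 CPM. Ccl1, Ccl22 and Xcl1 were each at 0 in 3 of the 4, as was Ccl7, a monocyte attractant mainly made by myeloid and stromal cells. Their depth was also the lowest, 2945638 to 5408375 counts over the second double-sorted libraries of the series. In the 4 tumour samples Cd8a was at 4.88 to 42.2 CPM and Cd8b1 at 11.0 to 58.5 CPM. The 7 melanoma markers summed to 6.58 to 669 CPM in them. The part of other cells in these ligand levels was not tested.

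Nrp1 genotype was compared within tumour Tregs, within LN Tregs and as an interaction with tissue, and in none of these 10 comparisons did edgeR call any of the 7 genes or any other gene (0% of all genes in each, with 291 to 952 genes at an unadjusted p below 0.05). DESeq2 called 3 to 318 genes in them. In tumour Tregs the log2 fold changes of the 7 genes ranged from -1.35 to 1.58 for N against WT, from -4.40 to 0.56 for HetNrp1def against WT, from -2.72 to 0.50 for HetWT against WT and from -4.90 to 1.39 for HetNrp1def against HetWT. Ccl5 had -0.05 ± 0.66 (SE) for N against WT in tumours and 0.02 ± 0.74 for HetNrp1def against HetWT. For Ccl3 the same comparisons gave 0.35 ± 1.24 and 0.18 ± 1.39, and for Ccl4 0.63 ± 1.09 and 0.16 ± 1.22. A p above the threshold does not show that the genotypes were alike. The samples of a pair of genotypes were separate in a tissue for 0 of the 7 genes in each of 8 such comparisons, and for 0.375% to 1.49% of all genes.

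Ccl3 in lymph nodes was the exception by another tool: DESeq2 called it higher in HetNrp1def than in WT LN Tregs (log2 fold change 7.64, adjusted p = 0.00558), while edgeR gave 6.82 (adjusted p = 0.397). The difference came from HetNrp1def LN samples at 16.6 and 22.3 CPM, beside 0.231 and 0.677 CPM in the other HetNrp1def samples and 0 to 0.287 CPM in WT. In the sample with 22.3 CPM, 6 NK cell markers summed to 853 CPM, of which Klrb1c made up 787.5 CPM; the part of those cells in its Ccl3 was not tested. Of the 7 genes, those with an unadjusted p below 0.05 in a genotype comparison or interaction were Ccl3 in LN for N against WT, for HetNrp1def against WT and in the interaction of N with tissue, Cxcl10 in LN for HetWT against WT, and Ccl22 in tumours for HetNrp1def against HetWT.

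Among the 18 tumour Treg samples, pairs of the 7 genes varied together to different degrees on a log2(CPM + 1) scale, which is given as a description since the samples share depth, sorting and genotype. Ccl3 and Ccl4, the neighbours, had a Pearson r of 0.81 and a Spearman rho of 0.80 (r = 0.73 without the 2 samples farthest from the Ccl3 median). Ccl1 and Xcl1, on different chromosomes, had 0.81 and 0.79 (0.86 without the 2 farthest samples). For Ccl3 and Ccl5 the values were 0.74 and 0.70 (0.59), and for Ccl3 and Cxcl10 0.03 and -0.02. Xcl1 and Ccl1 were low together in the second double-sorted samples, where each was at 0 in 3 of 4.

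**Figure D4:**
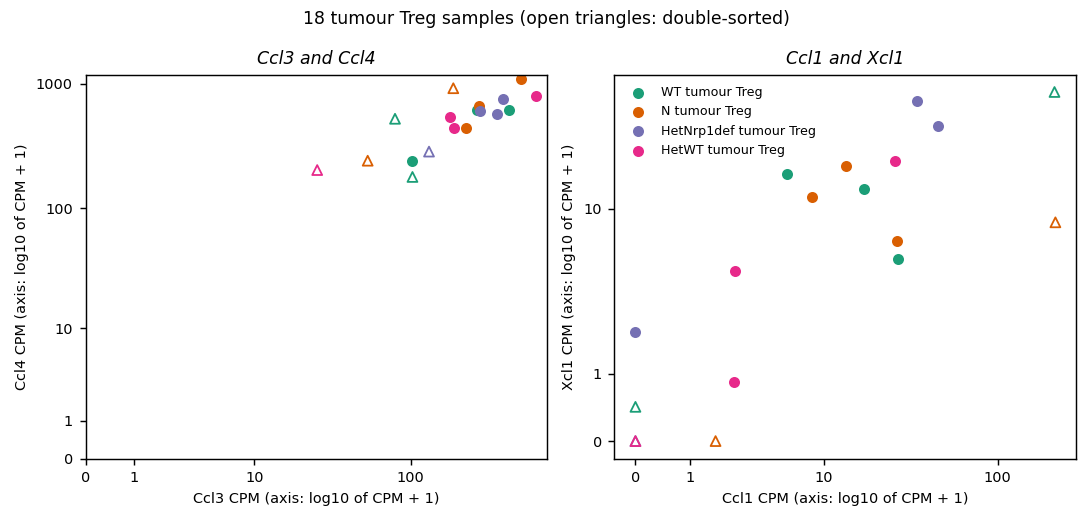
Pairs of chemokine genes in the 18 tumour Treg samples on log10(CPM + 1) axes; filled circles are single-sorted and open triangles double-sorted samples. Ccl3 and Ccl4 rise together (r = 0.81), as do Ccl1 and Xcl1 (r = 0.81), the latter with several samples near 0 on both axes.

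Over all 41 samples, the genes whose log2(CPM + 1) pattern was most like that of Ccl3 by Pearson r were Ccl4 (0.919), Galnt3 (0.919) and Ly6a (0.907), and for Ccl4 they were Ccl3, Lilrb4 (0.915) and Il10 (0.910). For Ccl5 they were Nkg7 (0.928), a cytotoxic granule gene, Ccr2 (0.913) and Lgals1 (0.909). For Ccl1 they were Nrgn (0.837), Dclk1 (0.758) and Xcl1 (0.757), and for Xcl1 they were Ccl1, Dclk1 (0.754) and Nrgn (0.744). Cxcl10 was closest to Ehd1 (0.851), Ccrl2 (0.807) and Cdkn1a (0.805). Ccl22 had no close match, with Galnt14 (0.662), Gpbp1l1 (0.619) and Rnf223 (0.590) first. Tissue and cell type are shared by all these points.

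Transcripts of receptors for these ligands were measured in the same Treg samples. Of 6 such receptors, 4 were called higher in tumour than in LN Tregs over the genotypes and 0 lower: Ccr1 (3.80 ± 0.81 (SE), adjusted p = 0.000667 by edgeR), Xcr1 (3.72), Cxcr3 (2.52) and Ccr8 (2.48). The values of Ccr3, 1.77 (adjusted p = 0.0712 by edgeR), and of Ccr4, 0.83 (adjusted p = 0.485), did not pass. Receptors of Ccl3, Ccl5, Ccl1, Xcl1 and Cxcl10 were thus among those called, while Ccr4, the receptor of the ligand that was lower in tumours, was not. In WT tumours 5 of the 6 were called higher in Tregs than in Teff, all but Ccr4 (0.32). Of the calls over the genotypes, that of Ccr8 was lost under 2 of 11 alternative settings, those of Ccr1 and Cxcr3 under 1, and that of Xcr1 under 0. Ccr3 was called under 2. Xcr1 also marks cross-presenting dendritic cells, and the part of such cells in its level was not tested.

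**Figure D5:**
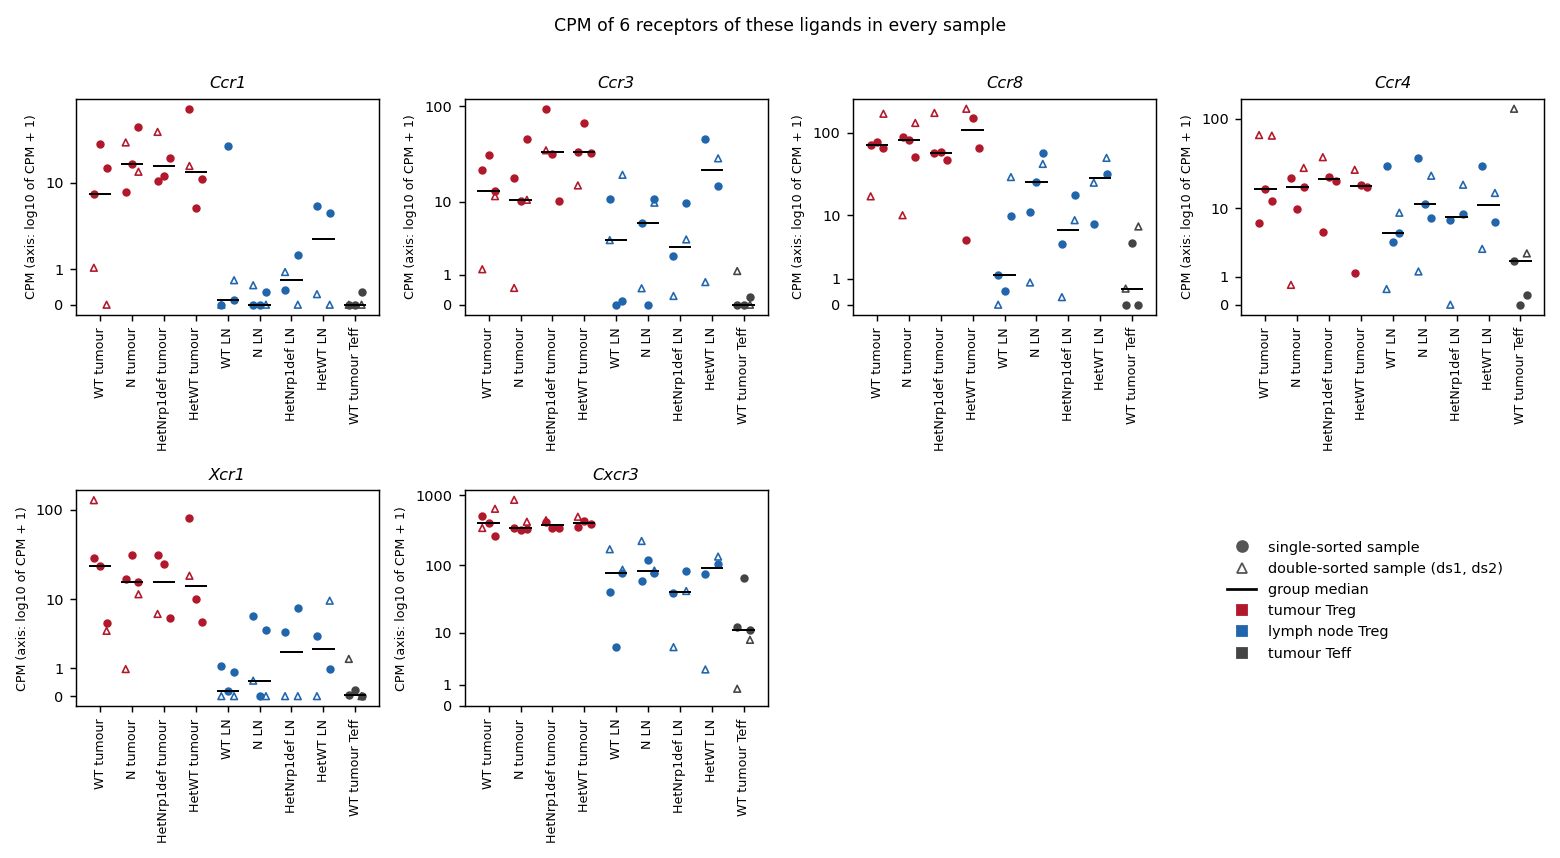
CPM of 6 receptors of these ligands in every sample, on a log10(CPM + 1) axis, with symbols and colours for sorting and tissue as in the plot of the ligands by sample. Cxcr3 lies higher in tumour Tregs (log2 fold change 2.52), and the difference of Ccr4 (0.83) did not pass the test.

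Of 12 other receptors with counts, 10 were tested, with 4 higher in tumour Tregs (Cxcr6 3.76, Ccr2 3.58, the atypical receptor Ccrl2 3.47 and Cx3cr1 2.93) and 4 lower. Ccrl2 was also called higher and Ccr6 and Ccr7 lower in WT alone, the Ccr6 call being lost under 6 of 11 alternative settings and in 8 of 10 fits without 1 sample. The lower ones were Ccr10 (-4.35), Ccr6 (-2.16) and the receptors of lymph node homing and follicles, Ccr7 (-3.01) and Cxcr5 (-1.57). Of 30 other chemokine ligands with a row of counts, 17 were tested, and 7 were higher over the genotypes, with 0 lower. These were Ccl7 (7.75), Pf4 (4.91), Ccl2 (4.89), Ccl12 (4.72), Ccl9 (3.83), Cxcl11 (3.58) and Ccl8 (2.97), most of them monocyte attractants or platelet and macrophage products. Leaving out 1 sample ended the call of Ccl8 in 6, of Cxcl11 in 3 and of Pf4 in 1 of 36 fits. Of 11 alternative settings, 5 ended the call of Cxcl11, 4 that of Ccl8 and 3 that of Cxcr5. In WT alone Ccl7 was called (8.11), and against Teff of WT tumours Ccl2 (6.27), Ccl7 (9.67) and Ccl9 (7.49). Leaving out 1 sample ended the WT tissue call of Ccl7 in 5 of 10 fits, and those of Ccl2 and Ccl9 against Teff in 7 of 10 each. Against Teff, Ccr2, Cxcr6 and Ccrl2 were called higher and Ccr7 lower. In the comparison of tissues over the genotypes 4 of 14 macrophage markers and 7 of 7 melanoma markers were called higher and 5 of 6 B cell markers lower, and their part in these ligand differences was not tested. Of 11 genes that act upstream of these chemokines, 4 were higher in tumour Tregs: Ifng (3.71, adjusted p = 0.000310 by edgeR) and the transcription factors Tbx21 (3.98), Prdm1 (3.17) and Batf (1.02), which are named after their values were seen. Irf1 (0.27, adjusted p = 0.297 by edgeR), an interferon-induced transcription factor, had a value that did not pass, and it was called under 1 of 11 alternative settings.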

How the data were processed

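RNA of sorted T cells was amplified from low input and sequenced. Per the submitters' processing notes, the authors used STAR, featureCounts, limma and the mm10 build, with no versions given. The deposited count table holds raw counts per gene, and a deposited table of log2 values made by the authors covers 10832 genes. From the counts, pairs of libraries of a group with a chi-square per degree of freedom below 5 were summed, giving 41 samples. CPM and all tests used edgeR 4.0.16 (R 4.3.3): TMM scaling, filterByExpr by group (minimum count 10, leaving 14668 genes, all 7 chemokine genes among them), and 1 robust quasi-likelihood fit of all 9 groups with 32 residual degrees of freedom. Calls have a Benjamini-Hochberg adjusted p below 0.05 over all genes tested. The fit was tested on simulated counts. DESeq2 1.42.0 and limma 3.58.1 (on the authors' log2 values) were alternatives. The log2 values and the counts disagree on WT Treg and Teff samples, as described for Ccl3, Ccl4 and Ccl5, and the reason was not tested. Counting intervals (95%) cover counting error only.

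The 7 genes and all lists were chosen with earlier results of these data known. All 7 are described in every group; other ligands and receptors are named where called over the genotypes, in WT or against Teff, receptors of the 7 and Ifng and Irf1 in any case, and the 3 genes most alike by Pearson r. Same-numbered samples deviated together (every r above 0.1) only for N across tissues (lowest r 0.101) and for HetNrp1def against HetWT in LN (lowest r 0.150). There the fit with a replicate block is the paired one, and it changed no call of the 7 genes. For HetNrp1def against HetWT in tumours the lowest r was 0.0999, just under that limit. The second double-sorted samples deviated together in every comparison of 2 groups (r 0.307 to 0.476), which the main fit does not model. Results for some genes of these lists are not reported here.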

Additional observations from a re-analysis of the deposited data

Results flagged for a closer look

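Of 63 sets of values (7 genes in 9 groups), 13 held a sample far from the others on a log2(CPM + 1) scale by Dixon's criterion. Chance alone marks about 1 in 20 sets of normally spread values, a rate that does not hold here, since most of the marked sets are at or near 0 in all samples but 1. Ccl3 in LN Tregs was at 0.287 CPM in WT replicate 3, 16.5 CPM in N replicate 4 and 3.88 CPM in HetWT replicate 2, while the others of each group were at or near 0. Ccl1 in LN Tregs was at 1.97 CPM in HetNrp1def replicate 2 and 3.61 CPM in HetWT replicate 4. Ccl22 was at 13.9 CPM in N tumour Treg replicate 3, against at most 0.477 CPM in the others, and at 47.4 CPM in HetWT LN Treg replicate 4. Xcl1 was at 12.3 CPM in HetWT LN Treg replicate 2, and at 0 in the second double-sorted N tumour sample, against 6.89 to 16.1 CPM in the others. In Teff, Ccl4 was at 0.182 CPM in replicate 4, and the first double-sorted sample had 0.540 CPM of Ccl1, 0.864 CPM of Ccl22 and 0.216 CPM of Xcl1. Each Teff value rests on 2 to 8 counts.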

How the results depend on the processing

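Over the genotypes Ccl3, Ccl4 and Ccl5 were called under all 11 alternatives, and 3 of the 7 genes were called among double-sorted samples alone (6 in the main analysis), where Xcl1 was -0.27. Within genotypes the counts moved more. Without the low-count filter 1 of the 7 was called in WT, 1 in N and 0 in HetNrp1def (93, 100 and 59 of all genes). On the authors' log2 values limma called 0 in WT, 0 in HetNrp1def, 0 in WT Tregs against Teff and 2 in all tumour Tregs against Teff. Of all genes it called 7, 6, 58 and 454 there. Single-sorted samples alone gave 1 in N, 1 in HetNrp1def and 1 in HetWT; double-sorted samples alone gave 0 in WT, 1 in N, 0 in HetNrp1def and 2 in both Teff comparisons. Single-sorted samples alone called 181, 133 and 110 of all genes in N, HetNrp1def and HetWT. Among double-sorted samples HetNrp1def and HetWT kept 1 tumour sample each, so a count of calls says little there. Without the second double-sorted samples 0 of the 7 were called in N (88 of all genes) and 0 in HetNrp1def (43 of all genes). In HetWT, 3 were called with the 45 libraries as deposited, 3 by DESeq2 and 2 with the replicate block, which changed no other count of the 7 by over 1.5 times. Of all genes 142, 262 and 93 were called in these HetWT fits. DESeq2 called 1, Ccl3, in LN for HetNrp1def against WT (241 of all genes). Leaving out 1 sample gave 6 to 7 calls over the genotypes, 1 to 3 calls for WT, 1 to 3 for N, 0 to 1 for each of HetNrp1def and HetWT, 6 to 6 in both Teff comparisons, and 0 to 0 between genotypes. Signs turned, with no call, in HetWT for Ccl22 (-4.07 to 2.00, the latter without LN replicate 4), Xcl1 (-0.75, without tumour replicate 2, to 5.78) and Cxcl10 (-0.17, without tumour replicate 4, to 3.29), between WT tissues for Ccl12 (-0.57 to 1.35), and against WT Teff for Ccr4 (-0.074 to 4.87), Irf1 (-0.024 to 0.31), Ccr6 (-0.062 to 0.88), Ccr10 (-0.29 to 2.37) and Cxcr5 (-0.82 to 0.48). The log2 fold changes with a turned sign, none of them called, were as follows. On the authors' log2 values they were, between WT tissues, Ccr1 -0.21, Ccl12 -0.30 and Cx3cr1 -1.01; in HetNrp1def, Xcl1 -0.99; and against Teff, Ccr1 -0.41, Irf1 -0.0070, Ccl8 -1.89, Cxcl11 -0.70, Cxcr5 0.66, Cx3cr1 -1.81 and, with all genotypes, Ccl22 -0.22. Among double-sorted samples they were, between WT tissues, Ccl22 1.33, Ccr3 -0.92, Irf1 -0.10 and Cx3cr1 -0.37; in HetNrp1def, Xcl1 -6.88; in HetWT, Ccl1 -2.38, Xcl1 -2.38 and Cxcl10 -1.53; and against Teff, Irf1 -0.036, Cxcl11 -0.99, Ccr10 -0.19, Cxcr5 0.52, Cx3cr1 -1.23 and, with all genotypes, Ccl22 -1.93. The others were Ccr4 between WT tissues (-0.10, single-sorted) and against Teff (-0.12, without the second double-sorted samples, where Irf1 was -0.041), Ccr10 against Teff (-0.063, replicate block), and Cxcl10 in HetWT (-0.31 by DESeq2 and by RLE). All genes called over the genotypes numbered 1644 (857 higher and 787 lower; 987 and 591 by library size alone), 1023 with limma and 78 among double-sorted samples. In WT they numbered 128, with 382 with the replicate block, 510 by DESeq2, 7 with limma, 362 single-sorted, 2 double-sorted and 345 without the first double-sorted samples, an alternative chosen after seeing the data. Scalings shifted the median of all genes by up to 0.18. The cause was not tested for any of these changes; alternatives with fewer samples have less power by construction. At 3 counts or fewer in a group, as for Ccl3, Ccl4 and Xcl1 in Teff, depth limits the ratio to its counting interval.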
